A study of Mus musculus with 74 samples.

Results

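Acetylation of histone H3 at lysine 27 (H3K27ac) was compared between quadriceps of mice that had lost the transcriptional repressor BCL6 for a short time and of controls without Cre. The libraries were chosen by their column headers, which mark the acute series as 1 week, and comprise 6 of the 74 samples of the series. The knockouts imKO_6346, imKO_6348 and imKO_6349 are labelled AEC-Esr Cre (+):Bcl6 fl/fl and the controls Ctr_6345, Ctr_6366 and Ctr_6371 Bcl6 fl/fl, all C57BL/6 and all given tamoxifen (TMX). Both groups therefore carried floxed Bcl6 and received tamoxifen, and the knockouts alone carried a Cre transgene, so an effect of Cre itself and of the loss of Bcl6 cannot be told apart in this series. The labels do not spell out the promoter behind the Cre, and they do not give an age. All 73866 merged regions of the acute series are covered, each 500 to 1000 bp long, with their nearest gene and annotation on mm10. Of these, 71868 had at least 5 normalised tags, meaning tags scaled to 10000000 per library, in at least 3 of the 6 libraries and were tested. The comparison asks where promoters and enhancers gain or lose acetylation early after Bcl6 is deleted.

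BCL6 is a zinc finger protein that sits on DNA and recruits corepressor complexes, some of which hold histone deacetylases. H3K27ac is laid down by the acetyltransferases CBP and p300 and is found at active promoters and enhancers. BCL6 is best known from germinal centre B cells, and the DNA core it recognises resembles that of STAT proteins, which act downstream of growth hormone in muscle.

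Acetylation rose in knockout muscle at few places and fell at fewer. Most raised regions lay outside promoters, as did 60203 of the 71868 tested regions. In limma at a Benjamini-Hochberg adjusted p below 0.05, 64 regions (0.0891% of those tested) were raised and 3 (0.00417%) were lowered. The 64 raised regions had 59 nearest genes, among them Akt1, a kinase of insulin and IGF signalling, Vdr, the vitamin D receptor, Chrna9, a nicotinic acetylcholine receptor subunit, and Usp46, a deubiquitinating enzyme. Their log2 changes ran from 0.68 to 3.96 with a median of 1.87, whereas the median of all tested regions was 0.0056. The lowered regions lay nearest Serpini2, Ppp1cc and Gm19689.

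These counts depended on the variance model and on single libraries. Without knockout imKO_6349, 8 regions were raised, without knockout imKO_6346 it was 13, and without Cre-negative Ctr_6366 it was 30. No region was lowered without Cre-negative Ctr_6366 or Ctr_6371, 6 without Cre-negative Ctr_6345 and 9 without knockout imKO_6348. In these refits the filter asked for signal in fewer libraries, so the set of tested regions changed as well. With a variance prior that ignores signal level, 0 regions were called in either direction, whereas edgeR on the recovered reads called 145 raised (0.202%) and 17 lowered (0.0237%), and DESeq2 76 and 4. At an unadjusted p below 0.05, 3267 regions were higher and 2390 lower in knockouts. All 67 called regions kept their direction in every alternative in which they were tested. The 6 regions nearest Akt1, Esr1, Gmpr, Rsph6a, Samd7 and Vps8 lost their call with the common prior only.

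Cre-negative Ctr_6345 and knockout imKO_6348 stood apart from the other libraries, with mean correlations of 0.84 and 0.832 against 0.864 to 0.878. They also had the fewest tags (11772723 and 12760184) and the most regions without a tag (364 and 528, against 23 to 108). Whether depth set them apart was not tested. Pairs within a group correlated between 0.85 and 0.915 and pairs across groups between 0.80 and 0.887. Without both, 188 regions were raised and 47 lowered, and these held 57 of the 64 raised and 3 of the 3 lowered regions. Depth ran from 11772723 to 20773905 tags per library, of which 21.1% to 22.1% lay in the regions. Nothing in the labels says whether animals were handled together, and the p-values measure the spread between these 6 animals only.

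Of the 5 raised promoters, meaning regions within 1000 bp of a start site, 3 had a start site in the RefSeq promoter table (GRCm38.p6). Their upstream 250 bases are shown because they are the sequence at hand nearest to raised regions, and each can be placed against the region and the BCL6 peaks. Of these bases, 166 lie inside the raised region at Cyp2j11, 52 at Chrna9 and all 250 at Gpat3, so the Chrna9 stretch is mostly outside it. Capitals mark the core TTCNNNGAA, which reads alike on both strands and is shared by STAT and BCL6 sites, and the sequences run 5′ to 3′ on the gene's strand.
Cyp2j11: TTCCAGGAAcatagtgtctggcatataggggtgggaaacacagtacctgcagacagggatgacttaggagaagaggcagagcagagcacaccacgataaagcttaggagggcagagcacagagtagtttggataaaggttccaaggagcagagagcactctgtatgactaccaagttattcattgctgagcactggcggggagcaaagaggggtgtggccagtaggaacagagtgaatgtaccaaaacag
Chrna9: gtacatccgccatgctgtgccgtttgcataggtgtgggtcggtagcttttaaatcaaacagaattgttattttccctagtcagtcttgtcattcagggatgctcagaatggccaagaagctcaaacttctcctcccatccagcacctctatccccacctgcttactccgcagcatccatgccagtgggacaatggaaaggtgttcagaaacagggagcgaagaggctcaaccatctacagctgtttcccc
Gpat3: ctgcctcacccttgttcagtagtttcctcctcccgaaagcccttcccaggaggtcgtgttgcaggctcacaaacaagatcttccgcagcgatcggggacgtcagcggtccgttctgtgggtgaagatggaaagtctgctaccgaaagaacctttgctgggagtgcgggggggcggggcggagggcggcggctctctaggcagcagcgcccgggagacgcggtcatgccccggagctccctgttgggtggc
The Cyp2j11 stretch lies at chr4:96348681-96348930 on the minus strand, the Chrna9 stretch at chr5:65966874-65967123 and the Gpat3 stretch at chr5:100845979-100846228, both on the plus strand. Cyp2j11 holds 1 match to the core, at chr4:96348922-96348930, which is within the raised region and within a BCL6 peak at chr4:96348770-96348990. The letters TTCNNNGAA occur in 7.02% of 32851 mouse promoter stretches of this length, and the narrower TTCCNNGAA in 4.06%. The Chrna9 and Gpat3 stretches hold no match in these windows. In Gpat3, 113 of the 250 bases lie in a BCL6 peak.

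Cyp2j11, which encodes a cytochrome P450 enzyme, had, with 1 tag added before the logarithm, the largest promoter change after Chrna9. Its region at chr4:96348765-96349265 stood at 0.85, 1.74 and 1.44 normalised tags in Cre-negative Ctr_6345, Ctr_6366 and Ctr_6371 and at 24.31, 27.43 and 17.81 in knockouts imKO_6346, imKO_6348 and imKO_6349. Every knockout lay far above every control, and acetylation rose by a log2 of 3.37 (SE 0.495, limma adjusted p = 0.001). The call was lost without knockout imKO_6346 (3.32). RiboTag mRNA of Cyp2j11 stood at 0.661, 1.36, 1.28 and 1.08 CPM (counts scaled to library size) in 4 controls and at 4.401, 4.08, 4.09 and 3.91 in 4 knockouts, which did not overlap (log2 change 1.84, edgeR adjusted p = 0.00343).

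Chrna9 encodes a nicotinic receptor subunit, and its promoter region at chr5:65966425-65966925 was nearly free of tags in controls. The signal was 0, 1.16 and 0.72 in Cre-negative Ctr_6345, Ctr_6366 and Ctr_6371 and 12.16, 10.97 and 29.36 in knockouts imKO_6346, imKO_6348 and imKO_6349. The groups did not overlap, with knockout imKO_6349 highest, and the log2 change was 3.44 (SE 0.641, limma adjusted p = 0.016). The call was lost without knockout imKO_6346 (3.62) and without knockout imKO_6349 (3.02). The nearest BCL6 peak lay 264 bp away.

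The other raised promoters were smaller in log2 change but had more signal. Gpat3, a glycerol-3-phosphate acyltransferase of lipid synthesis, stood at 98.53, 107.72 and 66.31 in Cre-negative Ctr_6345, Ctr_6366 and Ctr_6371 and at 134.25, 163.01 and 163.67 in knockouts imKO_6346, imKO_6348 and imKO_6349 (chr5:100845817-100846786, log2 change 0.78, SE 0.151, limma adjusted p = 0.0237). Masp1, a protease of the lectin pathway of complement, stood at 35.68, 36.48 and 43.25 against 84.57, 65.05 and 80.87 in the same library order (chr16:23519913-23520769, 0.98, SE 0.199, adjusted p = 0.0359). Neither gene's groups overlapped. The Gpat3 call was lost without Cre-negative Ctr_6371, knockout imKO_6348 or knockout imKO_6349, and the Masp1 call without any 1 library except knockout imKO_6348. The region 338 bp from the start of 1700012I11Rik, a gene known by its clone name, rose by 1.85 (SE 0.34, adjusted p = 0.0143), a call lost without Ctr_6371, imKO_6346 or imKO_6349. By class, 5 of 11665 promoters (0.0429%) and 59 of 60203 distal regions (0.098%) were raised.

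The raised distal regions were mostly intronic and far from start sites, as were most tested regions. Among all 64, 44 were annotated as intron, 14 as intergenic, and 43 lay over 10 kb from the nearest start site. Of the 71868 tested regions, 39419 were annotated as intron and 21485 as intergenic. The distance classes over 10 kb held 26953, 9912 and 7860 of the tested regions. The 67 called regions fell into 60 loci when regions less than 100 kb apart were joined, and 7 loci held 14 of the raised ones. Vps53, Mrps35, Uck2, Gm29684 and Gm14858 had 2 raised regions each. The nearest gene was not always the host. Of the 64 raised regions, 50 were annotated to a named transcript, including its promoter or its end. For 11 of the 50 this transcript was of a different gene. Examples are both Gm14858 regions in intron 9 of Hdac8 and the Tgfb3 region in intron 33 of Ttll5. Of these hosts, Camkk1, a calmodulin-dependent kinase kinase, and Zfyve28 were raised in both poly(A) RNA (0.13 and 0.14) and RiboTag mRNA (1.48 and 1.39), whereas Hdac8 stood at -0.019 and 0.15 without a call.

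**Figure D1:**
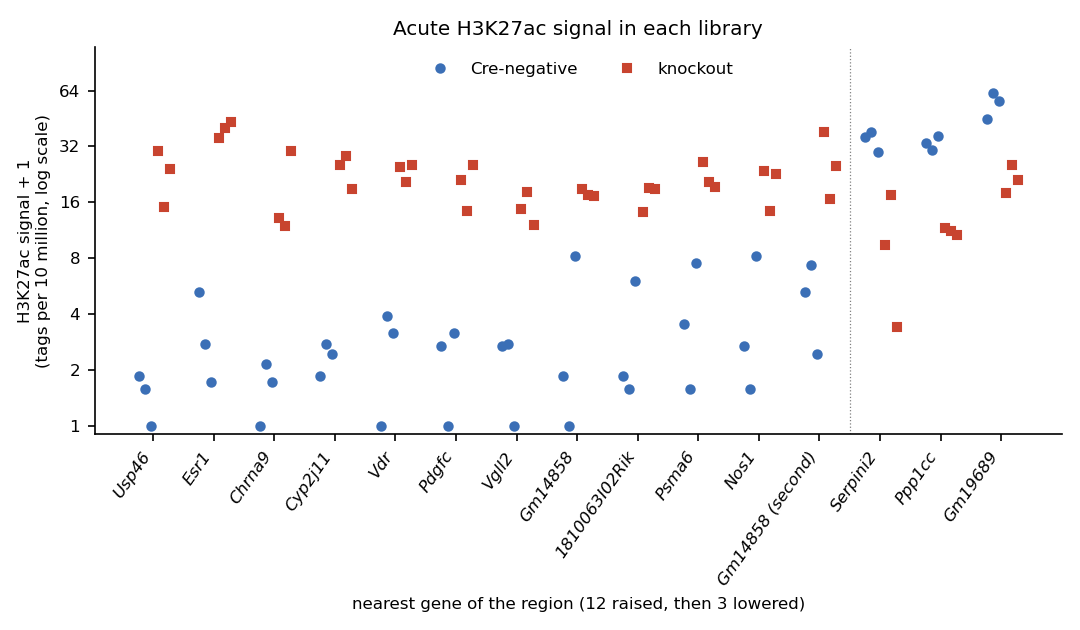
Signal plus 1 in normalised tags per region (log scale) for each acute library, at the 12 raised regions with the largest log2 change and the 3 lowered ones, named by nearest gene. Circles are Cre-negative and squares knockout libraries. The rule that chose the 15 regions required groups without overlap, so their separation is not a separate result.

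The largest change, with 1 tag added before the logarithm, was at Usp46, in intron 4 of 8 of the gene at chr5:74020285-74020785. Cre-negative Ctr_6345, Ctr_6366 and Ctr_6371 stood at 0.85, 0.58 and 0 normalised tags and knockouts imKO_6346, imKO_6348 and imKO_6349 at 29.07, 14.11 and 23.11. The groups were far apart, with a log2 change of 3.96 (SE 0.592, limma adjusted p = 0.00123). Adding 0.5 in place of 1 before the logarithm gave 4.59 and adding 5 gave 2.27, below Esr1 at 2.62, and the call was lost without knockout imKO_6346 (3.74) or knockout imKO_6349 (3.90). Quantile normalization also put Esr1 (3.81) above Usp46 (3.76). The Usp46 region held a BCL6 peak with a score of 657.8, the highest among the raised regions.

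At Vdr, the nuclear receptor for vitamin D, the region in intron 3 of 9 (chr15:97878639-97879139) stood at 0, 2.9 and 2.16 in Cre-negative Ctr_6345, Ctr_6366 and Ctr_6371. Knockouts imKO_6346, imKO_6348 and imKO_6349 stood at 23.78, 19.59 and 24.55, all well above the controls. The log2 change was 3.35 (SE 0.534, limma adjusted p = 0.00285), and it was the only tested region assigned to Vdr. Pdgfc encodes a platelet-derived growth factor, and the intergenic region 351 kb from its start rose by 3.27 (SE 0.571, adjusted p = 0.00913). Both calls were lost without knockout imKO_6346 (3.31 and 3.23) and without knockout imKO_6349 (3.29 and 3.09).

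Akt1, a kinase at the centre of insulin and IGF signalling, changed within its first intron, 1305 bp from the start site. The region at chr12:112672721-112673221 stood at 10.19, 15.06 and 8.65 in Cre-negative Ctr_6345, Ctr_6366 and Ctr_6371 and at 51.27, 50.16 and 44.77 in knockouts imKO_6346, imKO_6348 and imKO_6349. The 3 knockouts lay close together and above every control, and the log2 change was 2.05 (SE 0.291, limma adjusted p = 0.000615). Cep170b, whose raised region lies 20.5 kb upstream of its start, was in the same locus (1.75, SE 0.308, adjusted p = 0.00913). Vps8, a subunit of an endosomal tethering complex, had the second lowest p of all regions. Its region in intron 21 (chr16:21498854-21499552) stood at 20.39, 22.01 and 28.11 in controls and 105.71, 67.4 and 96.76 in knockouts (1.88, SE 0.226, adjusted p = 3.88e-05).

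The lowest p of all belonged to an exon of Esr1, the estrogen receptor alpha gene, at exon 6 of 10 (chr10:4856769-4857269). Cre-negative Ctr_6345, Ctr_6366 and Ctr_6371 stood at 4.25, 1.74 and 0.72 and knockouts imKO_6346, imKO_6348 and imKO_6349 at 34.36, 39.18 and 42.36. The groups were widely separated (3.76, SE 0.431, limma adjusted p = 2.61e-05), and none of the other 12 tested regions assigned to Esr1 was called. Tamoxifen-inducible Cre proteins carry a hormone-binding part of an estrogen receptor, and the label of the knockouts names the transgene AEC-Esr Cre. Esr1 poly(A) RNA was higher than in Cre-negative muscle by 1.34 (SE 0.0466, adjusted p = 2.06e-09), differed by 0.016 from Cre-positive muscle given oil (adjusted p = 0.787), and by -0.011 between RiboTag knockouts and controls, which all carried Cre (edgeR adjusted p = 0.979). At this exon, tags from the endogenous gene and from a transgene therefore cannot be told apart.

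Among the other named regions, Vgll2, a cofactor of TEAD transcription factors, rose by 2.93 (SE 0.62, adjusted p = 0.0492), Psma6, a proteasome subunit, by 2.65 (SE 0.5, adjusted p = 0.0168), and Nos1, the neuronal nitric oxide synthase of the muscle membrane, by 2.59 (SE 0.53, adjusted p = 0.0359). The 2 Gm14858 regions rose by 2.86 and 2.47 and the intergenic region nearest 1810063I02Rik by 2.72. Each of these 6 calls was lost without knockout imKO_6346 and also without knockout imKO_6349. All but the Gm14858 region at 2.47 were also lost without Ctr_6366, that region and Vgll2 without Ctr_6371, Nos1, 1810063I02Rik and the Gm14858 region at 2.86 without Ctr_6345, and Vgll2, 1810063I02Rik and the latter Gm14858 region without imKO_6348. The Gm14858 region at 2.86 was also not called in DESeq2 (adjusted p = 0.962). Adding 0.5 in place of 1 before the logarithm lost the calls of Vgll2, Nos1, 1810063I02Rik and this Gm14858 region. Scaling to the median lost those of Vgll2 and the same Gm14858 region. None of the 6 was tested under a filter of 20 normalised tags. In all 6 regions the Cre-negative mean was under 5 normalised tags. Of the 64 raised regions, 18 had such a mean, 34 had a mean under 10 and 5 had one over 50, whereas the median over all regions was 17.5. In the peak lists, 42 of the 64 came from the peak list of the knockouts alone, 3 from that of the controls alone and 19 from both. Since regions enter through either list and pass the filter when the 3 knockouts alone have signal, regions low in controls had to be higher in knockouts to be tested.

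**Figure D2:**
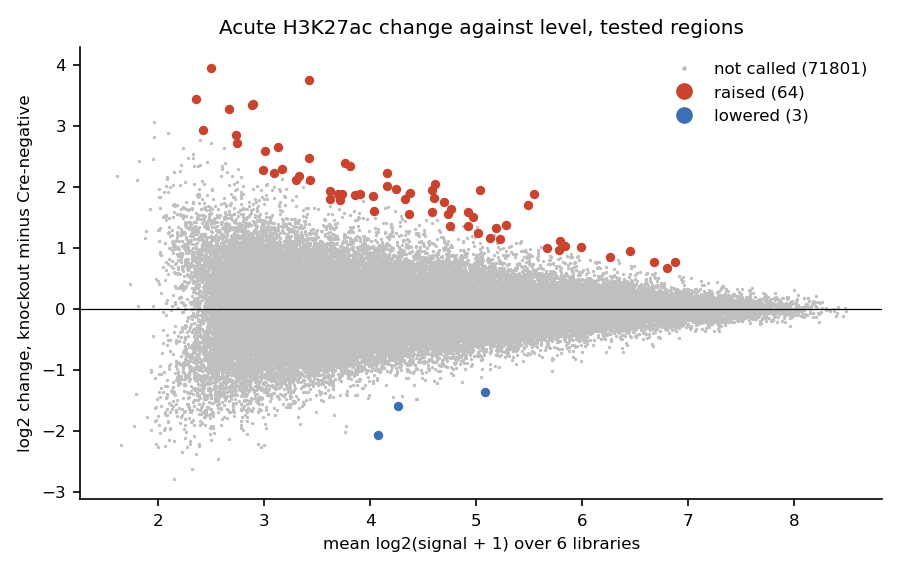
Log2 change (knockout minus Cre-negative) against the mean log2(signal + 1) over 6 libraries, for 71868 tested regions. The 64 raised regions (red) run over most of the range of signal, from changes of 3.96 at low signal to 0.68 at high signal, and the 3 lowered ones (blue) lie at mid-range.

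The 3 lowered regions had more signal in controls than most raised ones had. Gm19689, a predicted gene, had its region 50.8 kb away between genes (chr17:83128533-83129435), with 44.17, 61.39 and 55.5 in Cre-negative Ctr_6345, Ctr_6366 and Ctr_6371 and 16.91, 24.29 and 20.22 in knockouts imKO_6346, imKO_6348 and imKO_6349. It fell by 1.35 (SE 0.253, limma adjusted p = 0.0166), with no overlap of the groups, and was the only lowered region with a BCL6 peak. Ppp1cc, a catalytic subunit of protein phosphatase 1, fell by 1.58 in intron 3 (chr5:122171390-122171890, SE 0.309, adjusted p = 0.0237), from 32.4 ± 2.89 (SD, n = 3) to 10.1 ± 0.473. The intergenic region 124 kb from Serpini2, a serpin protease inhibitor gene, fell by 2.06 (SE 0.404, adjusted p = 0.0237), from 33.6 ± 4.26 to 9.11 ± 7.05 (SD, n = 3), with knockout imKO_6349 lowest at 2.41. The Gm19689 call was lost without Cre-negative Ctr_6366 or Ctr_6371 or knockout imKO_6346 or imKO_6349, and the other 2 calls without any 1 of the controls or knockout imKO_6349, that of Ppp1cc also without knockout imKO_6346.

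BCL6 peaks from 1 wild-type library lay at or beside most of the raised regions. A peak overlapped 24 of the 64 (37.5%), against 4.79% of tested regions, and 52 of the 64 (81.2%) lay within 10 kb of a peak, against 26.2%. The share of regions that were raised was 0.696% with a peak inside, 0.541% with a peak at up to 1000 bp, 0.0829% at up to 10 kb and 0.0226% further away. The median distance to a peak was 88 bp for the raised regions and 33607.5 bp for all tested regions. Among regions with a peak, the authors' peak score had a median of 72.9 in the raised ones and 25.7 in all tested ones. In 4 groups of rising score, 1 of 764, 2 of 953, 5 of 844 and 16 of 885 regions were raised, and the last group ran from 42.9 to 801.2. The 24 raised regions with a peak became 4 without knockout imKO_6349 and 6 without knockout imKO_6346.

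Most acetylated regions with a BCL6 peak were not called. Of 3446 tested regions holding a peak, 24 were raised and 1 was lowered, and their median log2 change was 0.086 against 0.0012 in the 68422 regions without one. Distal regions with a peak had a median of 0.12 and 22 of 2648 were raised (0.831%), whereas promoters with a peak had a median of 0.024 and 2 of 798 were raised (0.251%). Arid3b, a DNA-binding protein gene, shows a strongly scored peak (606.4) in a region that already had signal in controls. The region in its first intron (chr9:57831344-57831844) stood at 11.89, 14.48 and 12.25 in Cre-negative Ctr_6345, Ctr_6366 and Ctr_6371 and at 37.53, 40.75 and 43.8 in knockouts imKO_6346, imKO_6348 and imKO_6349. The 3 knockouts were all higher by about the same amount, with a log2 change of 1.59 (SE 0.285, limma adjusted p = 0.0104). This call and that of Cep170b were lost without knockout imKO_6346 or imKO_6349.

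**Figure D3:**
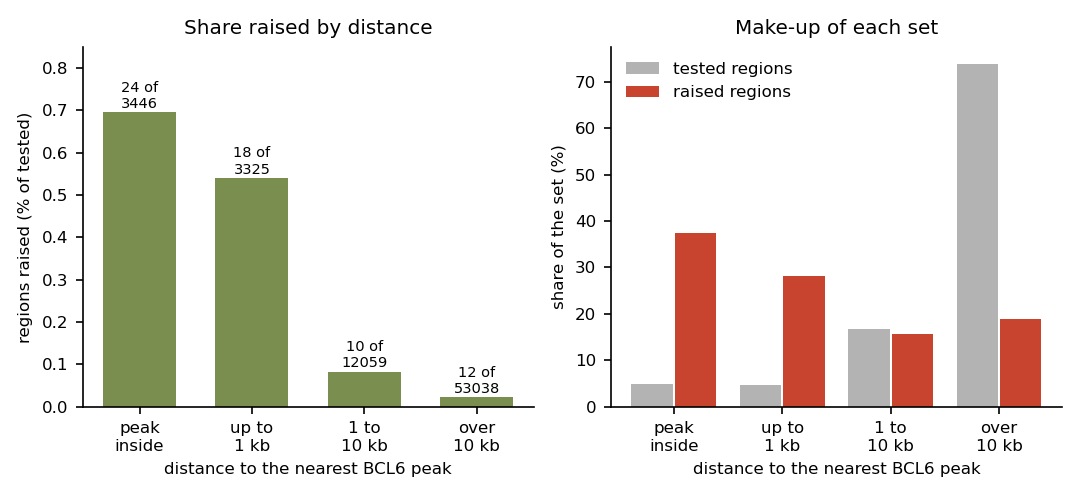
Left, share of tested regions that were raised, in percent, by distance to the nearest BCL6 peak, with counts above the bars. Right, make-up of all tested regions (grey) and of the 64 raised regions (red) by the same classes, in percent; 37.5% of the raised regions held a peak against 4.79% of those tested.

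The same regions were measured in 2 other sets of animals. In the chronic series, marked 12 weeks, 3 knockouts and 3 Cre-negative controls were counted in the same regions but scaled in a table of their own, so values are set side by side without a test of the difference. There, 107 of 68752 regions were raised (0.156%) and 8 lowered (0.0116%). Of the 64 regions raised in the acute series, 61 were higher in chronic knockouts, 50 had groups that did not overlap (12.6% of regions did so in the chronic table), and 32 were called raised. These 32 are 50% of the acute and 29.9% of the chronic raised regions. The median chronic change of the 64 was 1.92, against 0.040 for all regions tested in the acute series. All 3 lowered regions were lower, and Gm19689 was called (-1.35, limma adjusted p = 0.0261).

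Esr1 (4.397), Usp46 (3.999), Vdr (3.79), Chrna9 (3.18) and Akt1 (1.80) were called in chronic muscle as well. At Akt1 the chronic controls Ctr_1795, Ctr_1801 and Ctr_7362 stood at 17.17, 19.24 and 14.34 and the chronic knockouts imKO_1794, imKO_1802 and imKO_1803 at 55.64, 56.81 and 71.47. Other raised regions had little or no chronic difference. Gmpr, a GMP reductase gene whose region lies in intron 6 of Atxn1 and holds a BCL6 peak, stood at 10.19, 7.53 and 18.02 against 45.98, 47.8 and 45.25 in the acute series (1.96, SE 0.306, adjusted p = 0.00219). In chronic controls the same region stood at 20.15, 23.09 and 14.77 and in chronic knockouts at 22.36, 20.41 and 24.03, which overlapped (0.21, adjusted p = 0.922). Sqstm1, the autophagy receptor p62, rose in the acute series from 35.68, 35.33 and 33.88 to 60.78, 80.72 and 73.65 at 1134 bp upstream of its start (1.01, SE 0.205, adjusted p = 0.0358) and stood at -0.064 in the chronic series (adjusted p = 0.977). Its acute call was lost without any 1 library except Cre-negative Ctr_6345.

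Ulk1, the kinase that starts autophagy, was the smallest raised change (0.68, SE 0.145, adjusted p = 0.0498) and stood at 0.25 in chronic muscle (adjusted p = 0.794). Its acute call was lost without any 1 of the 6 libraries, without both Ctr_6345 and imKO_6348, and in DESeq2 (adjusted p = 0.072). It was also lost with 0.5 in place of 1 added before the logarithm and with scaling to the median. In all, 7 of the 64 regions had a chronic change under 0.3 (Gmpr, Ect2l, Gm12724, Ulk1, Sqstm1, 1810063I02Rik and Ppa2), and the last 3 of these were below 0. The side-by-side values also differed by distance to BCL6. Of the 42 raised regions with a peak inside or within 1000 bp, all were higher in chronic knockouts and 26 were called. Of the 10 further away but within 10 kb, 9 were higher and 4 were called. Of the 12 over 10 kb from a peak, 10 were higher and 2 were called. Among all regions tested in the acute series, 54.2% were higher in chronic knockouts, a share not counted by distance. Their median chronic change also fell with distance, at 0.14, 0.12, 0.050 and 0.025 from peak inside to over 10 kb.

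**Figure D4:**
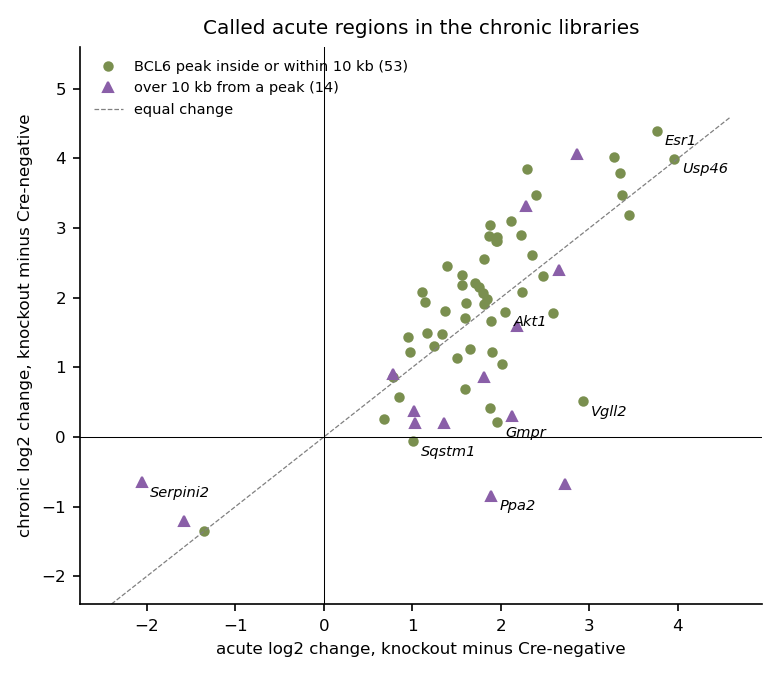
Chronic log2 change against acute log2 change for the 67 called acute regions, each knockout minus Cre-negative. Circles lie within 10 kb of a BCL6 peak and triangles further away, the dashed line marks equal change, and 61 of the 64 raised regions lie above 0 on the vertical axis.

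The other set consists of 1000 bp windows on BCL6 peaks in mice that were also used for RNA sequencing, 3 knockouts and 3 Cre-negative controls. Of the 9155 windows tested, 1524 were raised (16.6%) and 130 lowered (1.42%). A window overlapped 37 of the 64 raised regions (the window with the smallest p was taken where there were 2), all 37 were higher in knockouts and 35 were called, with a median of 2.07. At Usp46 the controls stood at 0.67, 0.91 and 0.95 and the knockouts at 38.95, 57.21 and 41.01, and the log2 change was 4.65 (limma adjusted p = 5.54e-07). The windows without a call were those of Gmpr (0.48, adjusted p = 0.0762) and Vgll2 (0.52, adjusted p = 0.192), both also without a call in the chronic series. The Gm19689 window was lowered (-1.38, adjusted p = 0.00449).

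RNA from other animals was set beside the acetylation of the nearest gene. The labels do not give the time after tamoxifen for these RNA samples. Of the 59 genes of raised regions, 47 were tested in poly(A) RNA, and 34 (72.3%) were raised and 0 lowered against Cre-negative muscle, where 5.97% of all 14015 genes tested were raised and 9.02% lowered. Against Cre-positive muscle given oil, which shares the knockout libraries, 33 were raised and 3 lowered (Cep170b, Acsl6 and Gpc1), with 9.8% and 13.3% of all genes. In RiboTag mRNA, 23 of 50 (46%) were raised and 0 lowered (1.95% and 2.25% of 14476 genes). In limma and edgeR respectively, 21 genes were raised in both kinds of RNA against tamoxifen-treated controls, and 20 of these also against oil.

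The largest RiboTag changes among these genes were at Chrna9 and Spns3, whereas in poly(A) RNA Chrna9 was followed by Esr1, Usp46 (0.89), Arid3b (0.78) and Akt1. Chrna9 RiboTag mRNA stood at 0.661, 1.07, 0.295 and 0.154 CPM in controls and at 55.5, 24.5, 26.4 and 24.9 in knockouts (log2 change 5.73, edgeR adjusted p = 1.83e-05), so all knockouts were far above all controls and 1 was well above the rest. Its poly(A) RNA stood at 7.26, 7.37, 7.13 and 7.24 in Cre-negative and between 8.74 and 9.001 in knockout muscle on the authors' log2 scale (1.65, limma adjusted p = 1.08e-09). Spns3, of the Spinster family of transporters, had a region in intron 5 (chr11:72537537-72538305) at 19.54, 22.59 and 31.71 in controls and 58.14, 53.29 and 52.47 in knockouts (1.15, SE 0.244, adjusted p = 0.0492), a call lost without any 1 library except Ctr_6371 and without both Ctr_6345 and imKO_6348. The Spns3 call was also lost with 0.5 in place of 1 added before the logarithm and with scaling to the median. Spns3 RiboTag mRNA rose by 5.41 (edgeR adjusted p = 6.33e-07) and its poly(A) RNA by 0.60 (limma adjusted p = 1.45e-08).

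Akt1 RiboTag mRNA stood at 162.2, 146.2, 164.1 and 140.8 CPM in controls and at 434.4, 463.8, 494.6 and 412.5 in knockouts, without overlap (1.49, edgeR adjusted p = 3.89e-06). Its poly(A) RNA was raised by 0.65 (limma adjusted p = 1.59e-08). Vdr mRNA was raised by 4.06 in RiboTag (edgeR adjusted p = 0.000373) from under 1 CPM in each control, Stc2, a secreted glycoprotein of the stress response, by 2.81 (adjusted p = 1.66e-05) and Usp46 by 2.23 (adjusted p = 6.33e-07). Of the raised promoters, Chrna9 and Masp1 had both RNAs raised, with Masp1 at 0.20 in poly(A) RNA (adjusted p = 0.000211) and 0.87 in RiboTag mRNA (adjusted p = 0.00364). By contrast 12 genes, Sqstm1, Gmpr and Vgll2 among them, were tested in both RNAs and raised in neither against tamoxifen-treated controls. Of these, Vgll2 (0.16, limma adjusted p = 0.00485) and Rbm5 (0.14, adjusted p = 0.00859) were raised in poly(A) RNA against oil. At 9 genes, mostly predicted and microRNA genes, neither RNA was tested.

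**Figure D5:**
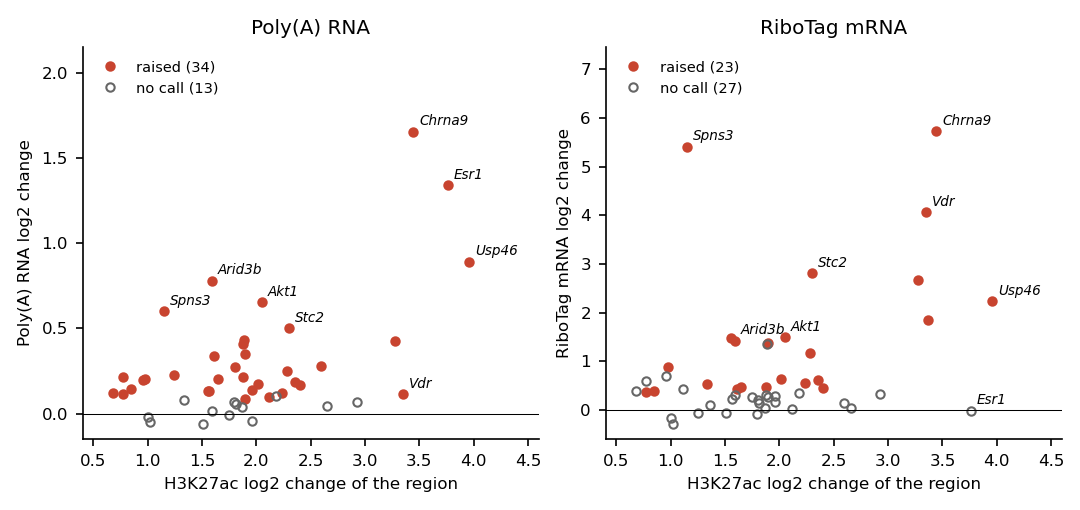
RNA log2 change against the H3K27ac log2 change of the gene's raised region (the one with the lowest p where there are 2), for poly(A) RNA against Cre-negative muscle (left, 47 genes) and RiboTag mRNA (right, 50 genes). Filled points are genes raised at an adjusted p below 0.05 (34 and 23) and open points genes without a call. The vertical scales differ between the panels. The poly(A) values were transformed by the authors, and why the ranges differ was not tested.

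Read from the RNA side, most genes with raised RNA had no called region. The promoters of genes raised in poly(A) RNA had a median acetylation change of 0.088 and 65.6% were higher in knockouts, with 3 of 622 called, and those of genes raised in RiboTag mRNA had 0.20 and 73.7%, with 3 of 194 called. Of all promoters of genes tested in these RNAs, 3 of 10764 and 4 of 10828 were raised. Of distal regions, 34 of 2896 nearest genes raised in poly(A) RNA and 22 of 1200 nearest genes raised in RiboTag mRNA were raised, against 47 of 47238 and 50 of 48421 nearest all tested genes. The promoters of genes lowered in RiboTag mRNA had a median of -0.046, with 41.7% higher, and those of genes lowered in poly(A) RNA 0.003, with 50.3% higher. All promoters of genes tested in RNA had a median of 0.008 and 51.9% to 52% were higher. No promoter or distal region of a gene lowered in either RNA, against tamoxifen-treated controls, was called.

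In the acute series no region was called at Socs2, Igf1, Trim63, Ddit4, Cish, Eif4ebp1, Fbxo32, Mstn or Bcl6. These were listed for their roles in growth control or as the deleted gene. Socs2, a feedback inhibitor of growth hormone signalling, had a promoter region (chr10:95415510-95416120) at 75.6, 72.97 and 66.31 in Cre-negative Ctr_6345, Ctr_6366 and Ctr_6371 and at 112.58, 94.83 and 102.05 in knockouts imKO_6346, imKO_6348 and imKO_6349. The groups did not overlap, as in 13% of tested regions (all knockouts above all controls in 7.07%), and the change of 0.52 (SE 0.155) did not pass in limma (adjusted p = 0.286). In chronic muscle it stood at 0.82 (adjusted p = 0.150). Socs2 poly(A) RNA was raised against Cre-negative muscle (0.36, limma adjusted p = 0.00384) and against oil (0.71, limma adjusted p = 2.11e-05). Its RiboTag mRNA was raised as well (1.69, edgeR adjusted p = 0.000809). Within 300 kb of this promoter 67 regions were tested, 36 were higher, and 3 were called. Of all tested regions, 50.7% were higher and 0.0891% were raised. The 3 called regions were 1 region of Cradd, an adaptor protein of cell death signalling (0.95, SE 0.189, adjusted p = 0.0258), and 2 of the noncoding gene Gm29684 (1.11 and 1.39, adjusted p = 0.0169 and 0.0289). Relative to the Socs2 promoter region they lay at -102396 bp (Cradd) and at -274726 and -274124 bp (Gm29684). The minus sign marks lower coordinates. Whether these 3 regions bear on Socs2 was not tested. The Cradd call was lost without Ctr_6366 or any 1 knockout, and the Gm29684 calls without Ctr_6345, Ctr_6366, imKO_6346 or imKO_6349.

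Igf1, whose poly(A) RNA was lower in knockouts by 0.98 (adjusted p = 1.04e-06), had a promoter region at 62.86, 33.59 and 54.06 in controls and 43.87, 30.56 and 44.77 in knockouts. These values overlapped, with a difference of -0.30 (SE 0.241, adjusted p = 0.803), and none of its 17 tested regions was called. The promoters of Trim63, a ubiquitin ligase of atrophy, and Ddit4, an inhibitor of mTORC1, stood at 0.29 (adjusted p = 0.729) and -0.12 (adjusted p = 0.896). Cish, Eif4ebp1, Fbxo32, Mstn and Bcl6 had no tested region within 1000 bp of a start site. Their other regions were not called, and the highest at Eif4ebp1, which encodes a repressor of translation, stood at 1.01 (adjusted p = 0.164). In chronic muscle this region was called (1.89, limma adjusted p = 0.0102). Cish regions 8908 and 10911 bp from its start were called there too (1.74 and 1.99, adjusted p = 0.00484 and 0.0056). The other Cish regions were not (1.35 and 0.25). Eif4ebp1 was raised in poly(A) RNA (0.40, limma adjusted p = 1.11e-05) and RiboTag mRNA (1.25, edgeR adjusted p = 3.51e-05). Cish poly(A) RNA was lower by 0.42 (limma adjusted p = 0.0057). The 3 regions nearest Bcl6 lay between -0.29 and 0.28 in the acute series, and acetylation there does not check the deletion. Bcl6 poly(A) RNA was lower in knockouts by 0.23 than in Cre-negative muscle (limma adjusted p = 0.0134) and by 0.31 than in muscle given oil (adjusted p = 0.0026), whereas in RiboTag mRNA it stood at 0.14 (edgeR adjusted p = 0.84). The RiboTag libraries are therefore called knockouts by their labels alone, and whether the counted parts of the gene include the deleted one is not given in the sources used here.

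Each pathway list held at most 1 raised region, which at a share of 0.0891% raised among all tested regions says nothing about the lists as groups. The IGF, insulin and PI3K list had 1 raised region of 286 (Akt1), atrophy and proteolysis 1 of 135 (Sqstm1), denervation and the neuromuscular junction 1 of 160 (Chrna9), the integrated stress response 1 of 63 (Stc2), and matrix and TGF-beta 1 of 322 (Tgfb3). Stc2 rose by 2.30 at 11.8 kb upstream (SE 0.482, adjusted p = 0.044) and Tgfb3 by 2.01 (SE 0.343, adjusted p = 0.00726). The Stc2 call was lost without any 1 library except Cre-negative Ctr_6371, without both Ctr_6345 and imKO_6348, and in DESeq2 (adjusted p = 0.0608), and the Tgfb3 call without knockout imKO_6349. With 0.5 in place of 1 added before the logarithm the Stc2 call was lost as well. No region was called in the lists for growth hormone, JAK and STAT signalling (213 regions, median -0.032), BCL6 and its corepressors (271, -0.014), translation repressors (135, 0.099), immediate early genes (211, 0.008) or the fast-fibre sarcomere (78, 0.046). A list of 33 genes named in earlier results of these data held 7 raised genes, which is not independent evidence because it was drawn from the RNA of the same study.

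The tissue label was checked against marker genes. Of 20 muscle fibre genes, 10 had a promoter region within 1000 bp of a start site, and Ckm and Myh4 did not. Their promoters summed to 850.3 to 959.6 normalised tags in controls and 881.7 to 1039 in knockouts. Of 108 markers of 10 other cell types, 42 had a promoter region, and 0 of their 557 regions were raised or lowered (median -0.040). With 0.0891% raised and 0.00417% lowered among all tested regions, 0 calls in 557 says nothing about these cell types. Promoter sums overlapped between groups in 9 of the 10 lists, from endothelial to adipocyte markers, and did not overlap in the other one, whose part in the results was not tested. In whole muscle fewer cells of a type and less acetylation per cell cannot be told apart.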

How the data were processed

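Per the labels' protocols, nuclei of formaldehyde-fixed quadriceps were precipitated with an antibody to H3K27ac. Per the submitters' processing notes, reads were handled with Bowtie 1.2, STAR 2.4.0, HOMER and DESeq2 1.14.1 on mm10. The deposited H3K27ac values are a signal: HOMER tags in each region, scaled so that every library totals 10000000, per the file headers. Dividing out the scaling gave whole reads for 100% of values (tolerance 0.05). Regions were merged from peak lists of both groups. The RiboTag table holds deposited counts with at most 5 tags per position, the poly(A) tables log2 values that the authors made by a transform not given in the sources used here, and the BCL6 list gives each peak a score by the authors, of unnamed scale.

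Signal was tested as log2(signal + 1) in limma 3.58.1 with a trended variance, after a filter of 5 normalised tags in 3 of 6 libraries. Where libraries were left out, the filter asked for 5 normalised tags in 2 libraries. Fold changes are on that scale, which understates changes of low regions. Poly(A) log2 values were tested in limma (above 3 in at least 4 libraries) and RiboTag counts in edgeR 4.0.16 (TMM, filterByExpr). Each p was adjusted over all features of its own comparison. Overlaps needed 1 bp (GenomicRanges 1.54.1). Alternatives were edgeR, DESeq2 1.42.0, other pseudocounts, filters and scalings, a common variance prior, and fewer libraries; leaving out 2 libraries together and the comparison with oil were added after seeing the data. The regions named include the 12 raised and all lowered called regions with the largest change. These needed groups without overlap and a mean of at least 10 normalised tags in the higher group, which all 64 raised and 3 lowered regions met. Named as well are the called promoters, fixed growth genes, up to 3 called regions of each list, genes with most called regions and those with both RNAs raised. Vps8, Arid3b, Gmpr, Spns3, Ulk1, Cradd and Cep170b, and the host genes, were named after their values were seen. Members and lists were chosen with earlier results of these data known. In data simulated from these libraries, 2.99%, 25.4% and 75.8% of regions changed by a log2 of 0.5, 1 and 2 were recovered (70284 regions run), and 2.82% of calls were false. The simulation drew regions independently, without differences shared across a library, and changed 200 random regions in both directions. Its rates therefore need not hold for the real libraries. Other tools were R 4.3.3, the data.table package (1.17.8), Python 3.11.15, pandas 2.3.3, numpy 2.4.6 and matplotlib 3.10.9. The values of 1 marker list, in which the groups did not overlap, are not reported here.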

Additional observations from a re-analysis of the deposited data

Results flagged for a closer look

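Only some of the genes of called regions named above were scanned for single samples that stood apart. In 82 groups of 4 or 5 RNA samples of these genes, 3 held a sample far from the rest, and chance gives about 1 in 20, or 4.1. In RiboTag mRNA, Usp46 stood at 109.3 CPM in knockout RNA_11721 and between 140.4 and 141.9 in the other knockouts. Chrna9 stood at 55.5 CPM in knockout RNA_11688 and between 24.5 and 26.4 in the others. In poly(A) RNA, Esr1 stood at 9.55 in Cre-negative P1898 and between 9.77 and 9.81 in the other Cre-negative samples. The acetylation groups hold 3 libraries each and were not examined in this way. At 0 of the 67 called regions did the acute and chronic groups separate in opposite directions.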

How the results depend on the processing

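All 67 called regions kept their direction under every alternative in which they were tested, and 67 were called by edgeR and 63 by DESeq2, but 0 kept the call under all 17 because the common variance prior called none: raised and lowered regions fell to 0 in all regions, promoters, distal regions and regions with a BCL6 peak. For raised regions, a pseudocount of 5 gave 140 in all, 133 distal and 51 with a BCL6 peak, and edgeR 145, 9 promoters, 136 and 51. Of the 64 raised regions, 48 kept the call with a pseudocount of 0.5 and 54 with scaling to the median. Under a filter of 20 normalised tags, which left regions low in signal untested, 38 kept it. For lowered regions, a pseudocount of 5 gave 13, 13 distal and 2 with a peak, quantile normalization 5 and 5 distal, and edgeR 17, 1 promoter, 16 and 4. Without both libraries that stood apart there were 188 raised (19 promoters, 169 distal, 48 with a peak) and 47 lowered (4, 43 and 5). Leaving out 1 library gave 8 to 78 raised and 0 to 9 lowered regions, 1 to 7 raised promoters, 7 to 71 raised and 0 to 9 lowered distal regions, and 4 to 29 raised and 0 to 3 lowered regions with a peak. Taking promoters from the file's annotation gave 3 raised. RNA was raised for 3 genes of raised promoters in poly(A) RNA and 3 in RiboTag mRNA, and 3 genes of raised regions were lowered against oil. Promoter values without a call changed sign at Igf1 without both libraries (0.054) and at Ddit4 without Cre-negative Ctr_6366 (0.073) or knockout imKO_6348 (0.039), with a range of -0.34 to 0.073 when 1 library was left out. Beyond the fewer libraries and the settings themselves, the cause was not tested. No paired analysis was possible because the groups share no replicate numbers. At this depth most regions have under 20 normalised tags, and changes of a log2 of 1 were recovered in 25.4% of simulated regions.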
